A study of Mus musculus with 3 samples.

Results

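The cells described here are keratinocytes of mouse dorsal skin that held an intermediate amount of *Lor* RNA and little *Krt14* RNA. They were chosen by their measured levels. Barcodes were kept as cells when 200 or more genes were detected and mitochondrial genes made up no more than 20% of the counts, and the level of a gene is its count as a part of 1e6 counts of the cell (CPM). Members had *Lor* from 8000 to below 40000 CPM, *Krt14* below 1000 CPM and at least 1000 detected genes. They numbered 198 of the 1369 cells with at least 1000 genes, and of 5760 cells in all. The data are single-cell libraries of skin taken at P18, when the hair follicles are in their first regression. Controls carried *Vdr* flox/flox and gave 2 libraries, and mice with *Vdr* flox/flox and Krt14cre (*Vdr* cKO) gave 1 library. All mice thus carried floxed *Vdr*, and Cre was driven by the *Krt14* promoter, which is active in the basal layer and the outer root sheath. The paper states that 3 male mice were pooled in each library. Cells were released by trypsin (0.25%, 20 min, 37°C) and scraping.

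Keratinocytes of the epidermis divide in the basal layer, where they express *Krt5* and *Krt14*, and move outward as they differentiate. Spinous cells switch to *Krt1* and *Krt10*. Granular cells then make loricrin, encoded by *Lor* and a main protein of the cornified envelope, together with filaggrin, late cornified envelope proteins, barrier lipids and the proteases that later shed the outer cells. VDR is the nuclear receptor for vitamin D and is needed for the hair cycle.

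*Lor* lies at chr3:92080271-92083142 on the minus strand of GRCm38 (GENCODE M21). Its promoter is shown because the level of this gene defined the cells. The 120 bases before the start site, at chr3:92083143-92083262 of GRCm38.p6 in RefSeq, hold a match to the AP-1 motif TGANTCA at 48 bases and a TATA box, TATAAA, at 27 bases before the start. Both are in capitals, in the orientation of the gene.
*Lor*: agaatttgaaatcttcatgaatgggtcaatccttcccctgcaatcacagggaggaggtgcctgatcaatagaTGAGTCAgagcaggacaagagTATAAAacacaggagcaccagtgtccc
Searched on both strands in the 250 bases before the start, the AP-1 letters were found in 6.87% and the TATA letters in 13.0% of 27025 RefSeq promoters. These matches are a description of the sequence and were not tied to binding in these cells. The other genes used as markers lie at chr11:99385254-99389364 on the minus strand (*Krt10*), chr3:121723537-121735048 on the plus strand (*F3*), chr11:83746940-83752642 on the plus strand (*Wfdc21*) and chr12:104028769-104044443 on the minus strand (*Serpina12*).

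The libraries were unequal. Control 1 held 13 members, control 2 held 77 and the *Vdr* cKO-labelled library held 108. Any value of control 1 therefore rests on few cells, and one of its cells often gave a large share of the counts. The members held 1611904, 4212388 and 3689198 counts, with medians of 76111, 39787 and 20584 counts and 1699, 1725 and 1865 genes in a cell. Members of control 1 were thus the most deeply counted and those of the *Vdr* cKO-labelled library the least. The counts may include copies made by PCR, since 11.3%, 18% and 21.9% of the entries above 0 were equal to 1 and the mean entry was 54.6, 28.3 and 16.6. All intervals below are at 95%, cover counting error only, and are too narrow to that extent. Barcodes shared with another library numbered 0, 4 and 0 among the members, and 0, 2 and 0 lay a single base from another barcode of their own library. Mitochondrial genes made up a median of 0.369%, 0.590% and 0.488% of a member's counts. No doublets were removed.

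*Vdr* itself was not lower in the *Vdr* cKO-labelled library. Members had 24.8 CPM in control 1 (17.7 to 33.8, exact Poisson), 29.7 CPM in control 2 (24.7 to 35.4) and 38.2 CPM in the *Vdr* cKO-labelled library (32.2 to 45.1). These levels rest on few cells, since *Vdr* was found in 2 of 13, 12 of 77 and 18 of 108 members. The other cells with at least 1000 genes had 40.9, 25.5 and 83.8 CPM. A count of the whole gene does not show whether the floxed part was present, so the genotype could not be checked from it. For this reason the library is named by its label throughout.

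Members made up 8.23% of the cells with at least 1000 genes in control 1 (4.45 to 13.7, Clopper-Pearson), 19.2% in control 2 (15.5 to 23.5) and 13.3% in the *Vdr* cKO-labelled library (11.1 to 15.9). The last value lay between those of the controls, which differed from each other more than either differed from it. The order depended on the limits: with at least 500 genes the shares were 19.7%, 25.6% and 17.2%, the last below both controls. With 1 *Vdr* cKO library no test between genotypes was made, and no p-value is given. Before the limit on *Krt14* was applied, the same *Lor* range held 19 cells (12%), 97 cells (24.2%) and 220 cells (27.1%), with the *Vdr* cKO-labelled library above both controls. Of these, 31.6%, 20.6% and 50.9% were then over the *Krt14* limit. *Krt14*-high cells made up 20.3%, 16.8% and 58.6% of all cells with at least 1000 genes, so the limit removed a larger share of the *Lor* range in the *Vdr* cKO-labelled library. The limit on genes also acted unequally, since cells with too few genes that met the other limits numbered 499, 470 and 378, or 37.7%, 37.4% and 20.9% of the cells with under 1000 genes.

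**Figure D1:**
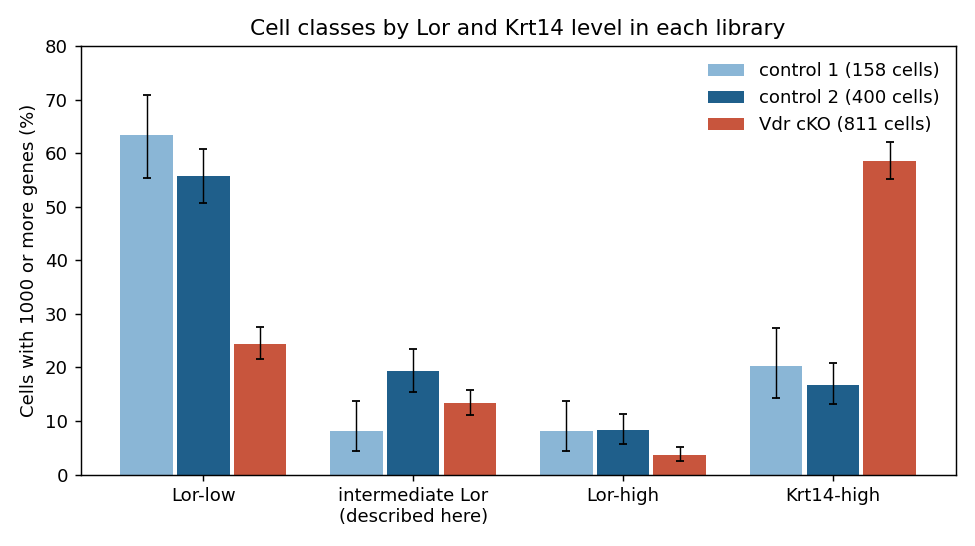
Share of cells (%) in each class among cells with at least 1000 genes, for control 1, control 2 and the *Vdr* cKO-labelled library, with bars from 0 and error bars for the 95% Clopper-Pearson interval of counting error. Cells with intermediate *Lor* made up 8.23%, 19.2% and 13.3%, and *Krt14*-high cells 20.3%, 16.8% and 58.6%.

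The remaining cells with at least 1000 genes fell into 3 classes. Cells with *Krt14* below 1000 CPM and *Lor* below 8000 CPM are called *Lor*-low (100, 223 and 198 cells). Those with *Lor* of at least 40000 CPM are called *Lor*-high (13, 33 and 30 cells). Cells with *Krt14* of at least 1000 CPM are called *Krt14*-high (32, 67 and 475 cells). Members below 9000 CPM of *Lor* numbered 1, 7 and 9, and cells outside the limit from 7000 to 8000 CPM numbered 3, 4 and 6. Members of at least 36000 CPM numbered 1, 3 and 6, and cells from 40000 to 44000 CPM numbered 2, 3 and 1. Members with *Krt14* of at least 800 CPM numbered 0, 3 and 7, and cells otherwise alike with 1000 to 1200 CPM numbered 0, 3 and 9.

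The 5 markers did not all mark these cells. *Lor* was at 22725, 17717 and 18666 CPM in the summed members of control 1, control 2 and the *Vdr* cKO-labelled library, and at 8769, 10292 and 11138 CPM in the other cells, which is what the rule fixed. *Krt10*, the type I keratin of spinous cells, was at 35050, 33890 and 34349 CPM in members. The other cells had 38459, 35342 and 24984 CPM, so members were not above them in either control. *Krt10* was in fact highest in *Lor*-low cells, with 46909, 42493 and 35852 CPM, and lower in *Lor*-high cells, with 19642, 11296 and 30191 CPM. The name transitional keratinocyte was therefore not borne out by *Krt10* as a marker that is higher in these cells, and they are called here cells with intermediate *Lor*.

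Wfdc21, a secreted protein with a WAP domain, and Serpina12, a serpin that inhibits the kallikrein Klk7, were higher in members than in the other cells of every library. *Wfdc21* was at 2510, 5452 and 2869 CPM in members, against 589, 1523 and 925 CPM in the other cells. That is 4.26-fold, 3.58-fold and 3.10-fold above. *Serpina12* was at 2381, 2057 and 1185 CPM, against 542, 643 and 453 CPM, or 4.38-fold, 3.20-fold and 2.61-fold above. *F3*, which encodes tissue factor, the cell surface starter of coagulation, was at 349, 713 and 706 CPM, against 204, 287 and 221 CPM. In control 1 it was 1.71-fold above the other cells, short of 2-fold. These genes belong to the counts that chose the cells and their names came with the choice, so the differences are a description.

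Single members varied widely in these genes. *Lor* ran from 8019 to 37137 CPM with a median of 18145 in control 1, from 8067 to 37263 with a median of 17805 in control 2, and from 8125 to 39325 with a median of 17320 in the *Vdr* cKO-labelled library. *Krt10* was present in every member, with medians of 32032, 33201 and 32642 CPM. *Wfdc21* was also present in every member, from 394 to 4635 CPM in control 1, 328 to 19767 in control 2 and 239 to 9220 in the *Vdr* cKO-labelled library. Medians were 2443, 4699 and 2138 CPM. *Serpina12* was found in 12 of 13, 74 of 77 and 97 of 108 members, with medians of 2661, 1461 and 974 CPM. *F3* was found in 10, 63 and 84 members, with medians of 275, 344 and 403 CPM. The ranges of the 3 libraries overlapped for every marker, but the median of *Wfdc21* in control 2 lay above the highest member of control 1.

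**Figure D2:**
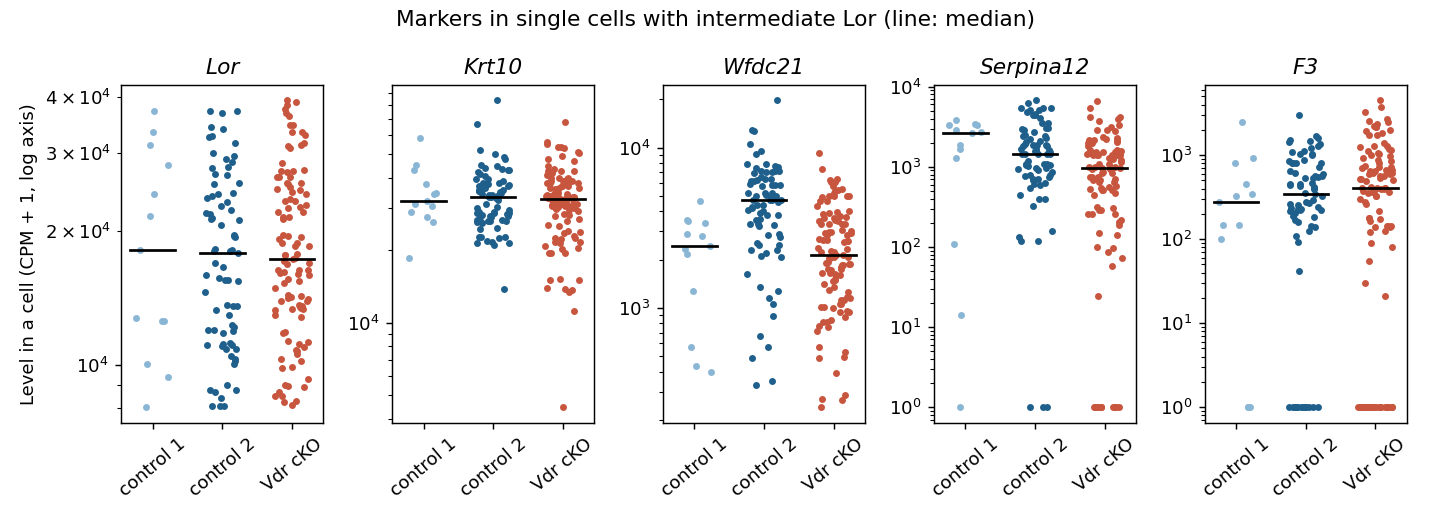
Levels of *Lor*, *Krt10*, *Wfdc21*, *Serpina12* and *F3* in single cells with intermediate *Lor* (CPM with 1 added, log axis), 1 point per cell, with the median as a line, in 13, 77 and 108 cells. *Krt10* medians were 32032, 33201 and 32642 CPM, while *Serpina12* medians were 2661, 1461 and 974 CPM, and cells without a count lie at 1.

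Since deeper cells show more genes, each cell was also thinned to 5000 counts, which left out 0, 3 and 2 members. *Wfdc21* was then found in 100% of control 1 members, 98.6% of control 2 members and 99.1% of members of the *Vdr* cKO-labelled library. In *Lor*-low cells it was found in 33.0%, 35.3% and 43.9%, and in *Lor*-high cells in 100%, 97.0% and 100%. *Serpina12* was found in 84.6%, 91.9% and 82.1% of members in 22%, 17.4% and 24.6% of *Lor*-low cells and in 100%, 93.9% and 86.7% of *Lor*-high cells. *F3* was found in 38.5% (13.9 to 68.4, Clopper-Pearson), 68.9% (57.1 to 79.2) and 62.3% (52.3 to 71.5) of members, in 23.0%, 22% and 23.5% of *Lor*-low cells and in 38.5%, 66.7% and 43.3% of *Lor*-high cells. Counts of these genes were thus frequent in *Lor*-high cells too. Without thinning, *F3* was found in 76.9%, 81.8% and 77.8% of members, and in 39.0%, 37.7% and 34.8% of *Lor*-low cells, whose median counts were 53915, 40223 and 18642. *Krt14* was found in 0 of 13, 19 of 74 and 46 of 106 thinned members. The thinned shares were 25.7% (16.2 to 37.2) in control 2 and 43.4% (33.8 to 53.4) in the *Vdr* cKO-labelled library. Without thinning *Krt14* was found in 4 of 13, 36 of 77 and 71 of 108 members, so the 0 of control 1 holds at the thinned depth only. In thinned *Lor*-low cells *Krt14* was found in 17.0%, 13.8% and 61.5%, so *Krt14* counts were more frequent in both classes of that library.

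Cells with *Krt14* below 1000 CPM were then placed in 8 ranges of *Lor*. *Wfdc21* was at 160, 213 and 194 CPM where *Lor* was below 4000 CPM. From 4000 to 8000 CPM of *Lor*, just outside the lower limit, it was already at 927, 3556 and 1509 CPM, and from 8000 to 14000 CPM, just inside, at 2751, 5485 and 2542 CPM. *Serpina12* went through the same 3 ranges with 147, 1833 and 1951 CPM in control 1, with 179, 1236 and 1912 CPM in control 2, and with 92.3, 814 and 1084 CPM in the *Vdr* cKO-labelled library. Both genes were thus many times higher on either side of the lower limit than in cells with the least *Lor*. Inside the limits neither gene kept a steady order with *Lor* in any library. In the range of 14000 to 20000 CPM control 1 had a single cell.

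In control 2 and the *Vdr* cKO-labelled library other genes kept climbing with *Lor*. *Crct1*, a cysteine-rich protein of the late epidermal cluster, was at 423 CPM in control 2 from 8000 to 14000 CPM of *Lor*, at 1166 CPM in the next range, at 2157 and 3038 CPM in the next, and at 15012 CPM in cells with at least 60000 CPM of *Lor*. In the *Vdr* cKO-labelled library these levels were 1253, 1383, 2209, 4514 and 17457 CPM. *Flg*, which encodes filaggrin, went from 606 through 1210, 1641 and 2650 to 5655 CPM in control 2 and from 498 through 504, 869 and 1412 to 2376 CPM in the *Vdr* cKO-labelled library. Its levels were lower than in control 2 in each of these ranges. *Krt10* moved the other way in control 2, from 38905 CPM at 8000 to 14000 CPM of *Lor* to 25504 CPM at 30000 to 40000 and 7371 CPM in the highest range. In the *Vdr* cKO-labelled library it was at 35072, 31609 and 27696 CPM in these ranges, a much smaller decline. In control 1 the 4 ranges within the limits held 6, 1, 3 and 3 cells, and the order was less steady. Its *Crct1* was at 963, 761, 9816 and 4976 CPM in these and at 16930 CPM in the highest range. Its *Flg* was at 548, 561, 2677 and 3897 CPM, then at 1572 CPM from 40000 to 60000 CPM of *Lor* and at 5168 CPM in the highest range. Its *Krt10* was at 35525, 37559, 39005 and 29528 CPM, and at 13611 CPM in the highest range. Across single members Spearman's rho of *Krt10* with *Lor* was −0.32 in control 2 (77 cells) and 0.0030 in the *Vdr* cKO-labelled library (108 cells). That of *Crct1* was 0.56 and 0.31, that of *Wfdc21* 0.098 and 0.13, and that of *Serpina12* 0.037 and −0.047. The points share a library, and all these genes are parts of the same total, so these values are a description.

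**Figure D3:**
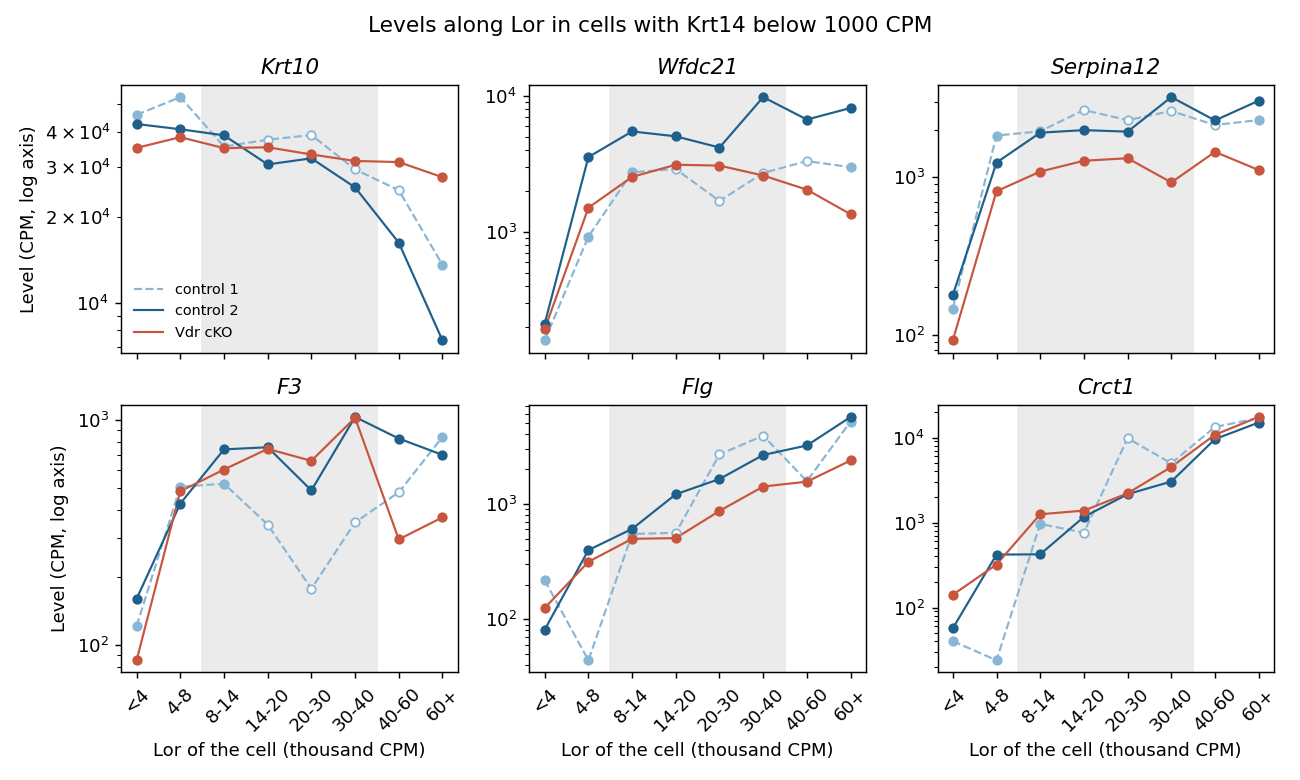
Summed level (CPM, log axis) of *Krt10*, *Wfdc21*, *Serpina12*, *F3*, *Flg* and *Crct1* in 8 ranges of the cell's *Lor* level (in units of 1000 CPM), for each library, with the range of the described cells shaded and open points for ranges with fewer than 5 cells. In control 2 *Krt10* went from 42648 CPM in the lowest range to 7371 CPM in the highest, and in the *Vdr* cKO-labelled library from 35144 to 27696 CPM.

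To ask what else set members apart, their summed counts were compared with those of the other cells in each library. A gene counted as different when it was over 2-fold apart in the same direction in all 3 libraries, with 1 CPM added. Genes were compared when the mean of members and other cells was at least 50 CPM in every library. Of 2477 such genes, 11 (0.444%) were higher and 33 (1.33%) were lower in members. The rule used these counts, so nothing is read from the numbers. They rest on agreement of all libraries, and without control 1 the count of higher genes was 25, without control 2 it was 29, and without control 2 the count of lower genes was 72.

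The 10 leading higher genes were *Ak1*, *Wfdc21*, *Slc6a14*, *Serpina12*, *Sod3*, *Srpk1*, *Cnfn*, *Gm32089*, *Wdr45* and *Tmem120a*. *Ak1*, the cytosolic adenylate kinase, was at 169, 277 and 112 CPM in members and 34.6, 47.2 and 26.1 CPM in the other cells. *Slc6a14*, a broad amino acid carrier, was at 346, 378 and 168 CPM against 103, 94.3 and 54.6 CPM. *Sod3*, the extracellular superoxide dismutase, was at 74.4, 190 and 121 CPM against 30.8, 43.9 and 52.8 CPM, but in control 1 only 2 members had a count of it and one gave 77.5% of the total. *Srpk1*, a kinase of splicing factors, was at 1285, 1448 and 1012 CPM against 542, 664 and 483 CPM. *Cnfn*, which encodes cornifelin of the cornified envelope, was at 1688, 1899 and 936 CPM against 815, 764 and 412 CPM. All 5 were at least as high in *Lor*-high cells as in *Lor*-low cells.

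The genes lower in members included those of sebaceous cells, which make the lipids of sebum. The leading 10 were *Scd3*, *Cyp2g1*, *Ces1d*, *Serpina3j*, *Soat1*, *Mgll*, *Cers4*, *Fa2h*, *Cidea* and *Prxl2a*. *Scd3*, a stearoyl-CoA desaturase of the sebaceous gland, was at 0.620, 18 and 2.44 CPM in members and at 1048, 988 and 187 CPM in the other cells. *Fa2h*, which hydroxylates fatty acids, was at 3.72, 5.22 and 27.1 CPM against 782, 299 and 258 CPM. These genes were concentrated in the *Krt14*-high class, where *Scd3* reached 6875, 4924 and 241 CPM. All 6 sebaceous genes that reached the mean of 50 CPM were lower in members, beside 1.33% of all genes. That mean includes the other cells, and so the *Krt14*-high cells that the rule kept out of the members. For this reason nothing is read from the count of 6. The list summed to 398, 292 and 388 CPM in members against 32499, 14997 and 3309 CPM in *Krt14*-high cells. Without the limit on *Krt14*, the count of lower genes was 2 in place of 33, so it rests on leaving out those cells.

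Members were also compared with the *Lor*-low and *Lor*-high classes, between which their *Lor* lay by the rule. Genes were kept here when the mean of members and both classes was at least 50 CPM in every library. No gene of 2339 was over 2-fold above both classes in every library (0.0%), and none was over 2-fold below both (0.0%). With a level of 10 CPM in place of 50 these counts were 3 and 7. Compared with each class singly, 62 genes (2.65%) were over 2-fold above *Lor*-low cells and 5 (0.214%) below them. In *Lor*-high cells 59 genes (2.52%) were over 2-fold above members and 68 (2.91%) below, but these were 98 and 33 with TMM factors and 122 and 22 with median-of-ratios factors, so which direction held more genes depended on the scaling. The classes were made by *Lor*, and the single comparisons were chosen after the values were seen. Without control 1 the 4 counts were 97, 14, 126 and 188, and without control 2 the last 3 were 28, 96 and 185.

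Genes above *Lor*-low cells were led by *Sod3*, *Lipk*, *Il18*, *Crct1*, *Slurp1*, *Smpd3*, *Scgb1a1*, *Lor*, *Ly6m* and *Ctsl*. *Crct1* was at 38.1, 88.7 and 181 CPM in *Lor*-low cells and at 4289, 1268 and 1876 CPM in members, and it reached 15013, 12622 and 12877 CPM in *Lor*-high cells. In control 1 one member gave 55.0% of its counts. *Lipk*, an acid lipase of the granular layer, was at 5.07, 3.22 and 5.75 CPM in *Lor*-low cells and at 174, 150 and 73.7 CPM in members. *Il18*, an interleukin kept as a precursor in keratinocytes, was at 7.28, 11.8 and 11.7 CPM and then at 329, 135 and 132 CPM. *Ctsl*, a lysosomal cathepsin, was at 25.6, 17.7 and 38.5 CPM and then at 489, 203 and 288 CPM. The 5 genes below *Lor*-low cells were *Atp2b4*, *Foxn3*, *Pdia6*, *Clca3a2* and *Diaph1*. *Atp2b4*, a plasma membrane calcium pump, was at 356, 253 and 195 CPM in *Lor*-low cells and 141, 71.0 and 80.2 CPM in members.

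The genes most above members in *Lor*-high cells were *Krtap3-2*, *Lce1c*, *Hmox1*, *Lce1a1*, *Lipn*, *Rnf225*, *Lce1a2*, *Ecm1*, *Gm14137* and *Fmo2*. *Lce1c*, a late cornified envelope gene, was at 105, 23.0 and 30.9 CPM in members and at 5320, 548 and 2421 CPM in *Lor*-high cells. From 40000 to 60000 CPM of *Lor* it was still at 3.72 CPM in control 2 and 46.0 CPM in the *Vdr* cKO-labelled library, and it was at 976 and 7653 CPM in the range above. *Lce1a1* (9.91 and 0 CPM, then 458 and 3090 CPM) and *Lce1a2* (0 and 4.38 CPM, then 524 and 10770 CPM) were alike in this, while in control 1 *Lce1c*, *Lce1a1* and *Lce1a2* were already at 6023, 2925 and 7964 CPM from 40000 to 60000 CPM. They have close copies at the same locus, and reads could be split among them. *Lipn*, a further epidermal lipase, was at 18.6, 6.17 and 37.9 CPM in members and at 280, 298 and 245 CPM in *Lor*-high cells, and it was found in 2, 4 and 13 members. *Hmox1*, the inducible heme oxygenase, was at 23.0, 1.66 and 10.8 CPM and then at 495, 230 and 177 CPM. Genes lower in *Lor*-high cells were led by *2510002D24Rik*, *Fkbp3*, *Dusp7*, *Setd3*, *Setd5*, *Gstm5*, *Ankrd49*, *Rtraf*, *Phip* and *Hnrnpd*. *Hnrnpd*, an RNA-binding protein, was at 150, 124 and 72.6 CPM in members and at 0, 9.28 and 18.8 CPM in *Lor*-high cells.

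The genes were then taken as lists by role. The granular and cornified list summed to 51954, 33332 and 31792 CPM in members, against 8204, 7055 and 7267 CPM in *Lor*-low cells and 139105, 124289 and 122429 CPM in *Lor*-high cells. *Lor*, which made the classes, is part of this list. Without it, a sum chosen after the values were seen, the list came to 29228, 15615 and 13126 CPM in members, 6783, 5810 and 5188 CPM in *Lor*-low cells and 73211, 56903 and 59342 CPM in *Lor*-high cells. Of its 18 genes at the level needed, 9 were above *Lor*-low cells, namely *Lor*, *Crct1*, *Lce1m*, *Lce1c*, *Flg*, *Flg2*, *Asprv1*, *Cnfn* and *Nccrp1*, and 7 were higher in *Lor*-high cells than in members, beside 2.65% and 2.52% of all genes. The call of *Lor* was fixed by the rule. *Flg2*, a relative of filaggrin, was at 684, 756 and 791 CPM in *Lor*-low cells and 4258, 3211 and 2262 CPM in members. *Asprv1*, the protease that trims filaggrin, was at 1027, 744 and 672 CPM and then at 3823, 2270 and 2500 CPM. *Ivl*, which encodes involucrin, was not called, with 1295, 930 and 775 CPM in members and 1008, 1055 and 774 CPM in *Lor*-low cells. *Tgm1*, the transglutaminase that links the envelope, was at 181, 93.1 and 166 CPM in members and 45.5, 57.0 and 63.1 CPM in *Lor*-low cells, short of 2-fold in control 2.

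None of the 13 spinous genes compared was called against a neighbouring class, beside 2.65% of all genes above and 0.214% below *Lor*-low cells, and 2.52% higher and 2.91% lower in *Lor*-high cells. At these shares a count of 0 in 13 is no result about the list. The spinous list summed to 119185, 136706 and 115690 CPM in members, with *Krt10* as its most abundant gene. *Krt1*, the partner of *Krt10*, was at 2675, 2306 and 1812 CPM in *Lor*-low cells, 1508, 1641 and 1281 CPM in members and 898, 629 and 568 CPM in *Lor*-high cells. *Krtdap*, a secreted protein of differentiating keratinocytes, was higher in members (25587, 38868 and 30604 CPM) than in *Lor*-low cells (15984, 25113 and 18029 CPM) without reaching 2-fold. The 10 genes with the most counts in members, not corrected for length, were *Krt10*, *Krtdap*, *Lor*, *Dmkn*, *Krt77*, *Sbsn*, *Malat1*, *Spink5*, *Lgals7* and *Calm4*, which are mostly genes of suprabasal epidermis. *Spink5*, an inhibitor of kallikreins, was at 12838, 13619 and 8880 CPM in members.

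Among 16 transcription factors of differentiation at the level needed, 1 was above *Lor*-low cells, beside 2.65% of all genes, and nothing is read from this count. The gene was *Prdm1*, which encodes Blimp1, at 3.38, 5.65 and 12 CPM in *Lor*-low cells, 87.5, 117 and 37.1 CPM in members and 390, 413 and 325 CPM in *Lor*-high cells. *Klf4*, a factor of the barrier, was at 2140, 1826 and 1185 CPM in members and 2106, 1611 and 1003 CPM in *Lor*-low cells. *Gata3* was at 463, 521 and 541 CPM in members and 783, 760 and 835 CPM in *Lor*-low cells. Beside the same 2.65%, 3 of 20 barrier lipid genes were above *Lor*-low cells, *Alox12b*, *Lipk* and *Sdr9c7*. *Alox12b*, a lipoxygenase of barrier ceramides, was at 60.2, 118 and 53.3 CPM and then at 326, 347 and 192 CPM. *Elovl1*, which extends long fatty acids, was at 873, 767 and 973 CPM and then at 1503, 2307 and 2324 CPM, short of the call in control 1. Likewise, 3 of 17 proteases and inhibitors were above *Lor*-low cells, *Serpina12*, *Wfdc21* and *Ctsl*. *Klk7*, a protease of shedding, was at 1876, 1571 and 1422 CPM in *Lor*-low cells, 3737, 4806 and 2998 CPM in members and 6288, 7987 and 5165 CPM in *Lor*-high cells. *Btc*, an EGF receptor ligand, was at 15.7, 13.4 and 17.8 CPM in *Lor*-low cells, 367, 64.1 and 290 CPM in members and 1415, 1520 and 2896 CPM in *Lor*-high cells.

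Of 4 coagulation and wound genes, *F3* was above *Lor*-low cells, which had 174, 184 and 173 CPM. None of 10 desmosome and plaque genes, 8 connexin and tight junction genes, 10 calmodulin and calcium genes, 10 immediate early genes, 9 heat shock chaperones or 2 vitamin D pathway genes was called against *Lor*-low cells. With 2.65% of all genes above and 0.214% below, nothing is read from these counts of 0. *Dsp*, which encodes desmoplakin, was at 5884, 5968 and 3911 CPM in *Lor*-low cells, 3969, 5022 and 3606 CPM in members and 1880, 2435 and 2336 CPM in *Lor*-high cells. *Calm4*, a calmodulin of the epidermis, was at 7834, 6636 and 6072 CPM in members. Of 79 cytosolic ribosomal protein genes none was called against *Lor*-low cells and 3 were lower in *Lor*-high cells, beside 2.91% of all genes, which is no result about the list. Their sum in members was 48507, 59298 and 65090 CPM. Mitochondrial genes summed to 4300, 6348 and 6086 CPM in members and 9896, 9172 and 9636 CPM in the other cells.

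Markers of the inner root sheath, hair shaft, T cells, melanocytes, fibroblasts and endothelium were low in members. The inner root sheath list summed to 0, 0 and 26.6 CPM and the hair shaft list to 10.5, 32.3 and 40.9 CPM. T cell markers summed to 0.620, 7.60 and 16 CPM, melanocyte markers to 0, 0.712 and 5.96 CPM, fibroblast markers to 0, 16.9 and 32.3 CPM and endothelial markers to 0.620, 0.475 and 0 CPM. Of 10 inner root sheath genes 10, 10 and 4 were at 0, of 7 melanocyte genes 7, 6 and 5, and of 6 endothelial genes 5, 5 and 6. Red blood cell genes summed to 18, 54.6 and 60.4 CPM, bulge genes to 90.0, 19 and 136 CPM, and cycling genes to 562, 388 and 543 CPM with *Hmgb2* as the most abundant. Langerhans cell markers summed to 374, 238 and 382 CPM, mostly *Epcam*, which other epithelial cells also express. Companion layer and wound keratins summed to 1344, 1297 and 2363 CPM, mostly *Krt17*, which was at 1059, 1226 and 2320 CPM in members and 445, 546 and 1521 CPM in *Lor*-low cells. The list summed to 378, 589 and 2421 CPM in the other cells, so members were above them in both controls. It summed to 452, 593 and 1721 CPM in *Lor*-low cells and to 233, 454 and 798 CPM in *Lor*-high cells. Members were above both of these classes in every library. Upper follicle genes summed to 3476, 2448 and 3827 CPM and were led by *Cst6*, a cystatin also found in the interfollicular epidermis. They summed to 1230, 2023 and 4947 CPM in the other cells, again below members in both controls. The sum does not stand for each gene of the list. Of 3 of its genes compared with the other cells, none was over 2-fold higher in every library. The keratin *Krt79* was lower, beside 1.33% of all genes.

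Members of the *Vdr* cKO-labelled library were then compared with members of both controls. Of 3102 genes at a mean of 50 CPM or more, 77 (2.48%) were over 2-fold above both controls and 114 (3.68%) were over 2-fold below both. With control 1 in the place of that library the counts were 351 (11.3%) and 474 (15.3%). With control 2 in that place they were 84 (2.71%) and 173 (5.58%). Fewer genes were thus apart for the *Vdr* cKO-labelled library than for either control, and their number does not set it outside the spread between the libraries. However, control 1, control 2 and that library held 13, 77 and 108 members, and the counts fell as the number of members rose. The part of cell number was not tested. The counts therefore give no distance between libraries and do not show whether the genotypes differ. Without control 1 the counts were 280 and 248, and without control 2 they were 539 and 616. Of the genes apart, 40.3% were higher, but 24.2% were with TMM factors and 29.0% with median-of-ratios factors, which moved the median log2 ratio of all genes by −0.16 and −0.14.

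**Figure D4:**
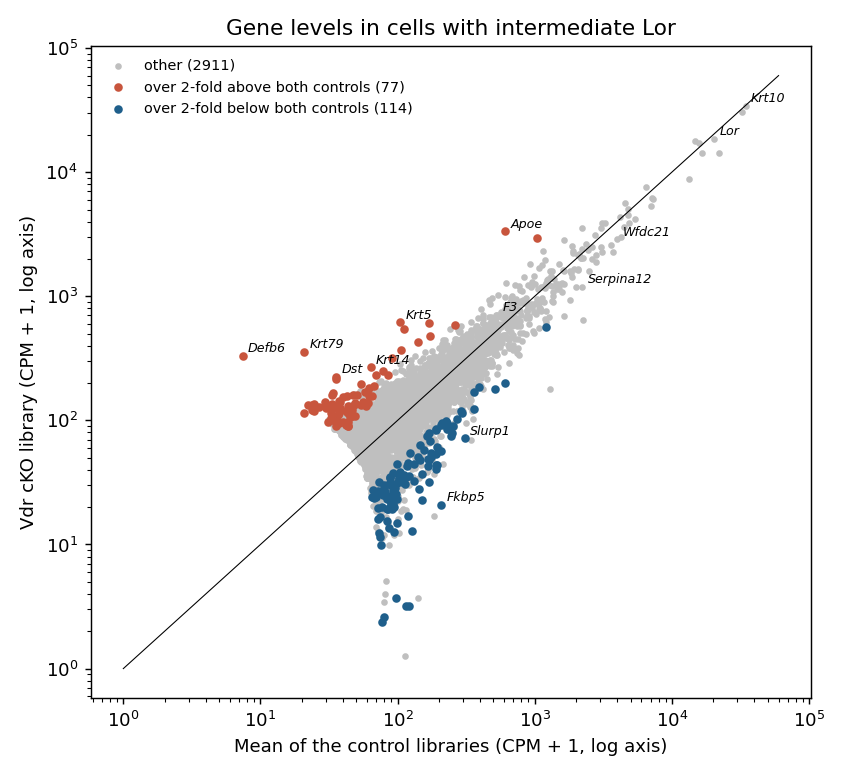
Summed level of each of 3102 genes in cells with intermediate *Lor*, in the *Vdr* cKO-labelled library (vertical, CPM with 1 added, log axis) against the mean of the controls (horizontal, CPM with 1 added, log axis), with the line of equal levels. The 77 genes over 2-fold above and the 114 over 2-fold below both controls are coloured, and *Lor* and *Krt10* lie close to the line.

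The 5 markers did not separate the genotypes in one direction. The log2 ratio of the *Vdr* cKO-labelled library over the control mean was −0.12 for *Lor*, −0.01 for *Krt10*, 0.41 for *F3*, −0.47 for *Wfdc21* and −0.90 for *Serpina12*. The log2 ratio of control 1 over control 2 was 0.36, 0.05, −1.03, −1.12 and 0.21 for the same genes. *F3* and *Wfdc21* thus lay within the range of the controls. *Serpina12* lay below both, with 1185 CPM (1150 to 1221, exact Poisson) against 2381 CPM (2306 to 2458) and 2057 CPM (2013 to 2100), which is over 2-fold below control 1 and less than 2-fold below control 2. It was also lowest in that library among the other cells (453 CPM against 542 and 643 CPM).

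Among the genes most above both controls were *Defb6*, *Krt79*, *Bod1*, *Dst*, *Triap1*, *Apoe*, *Gcc2*, *Krt5* and *Vgll4*. *Defb6*, a beta-defensin, was at 3.10 and 9.73 CPM in control 1 and control 2 and at 332 CPM in the *Vdr* cKO-labelled library, a log2 ratio of 5.49 over the control mean. One member gave 37.3% of these counts, and 52 of 108 members had any. *Krt79*, a keratin of the upper follicle, was at 10.5, 29.0 and 358 CPM. *Apoe*, a lipid carrier, was at 434, 780 and 3345 CPM and was found in 106 of 108 members. *Dst*, which encodes dystonin of the hemidesmosome, was at 23.0, 46.3 and 224 CPM, and *Krt5*, the basal keratin, at 23.0, 184 and 618 CPM.

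Most of these genes were also higher in the other cells of the same library. *Defb6* was at 3.52, 27.4 and 422 CPM there, *Krt79* at 182, 232 and 792 CPM, *Apoe* at 2033, 1481 and 9677 CPM, *Dst* at 183, 95.6 and 783 CPM and *Krt5* at 442, 301 and 2418 CPM. In *Lor*-low cells *Apoe* was at 981, 789 and 5143 CPM and *Defb6* at 2.99, 15.3 and 347 CPM. Of the 6 basal or outer root sheath genes at the level needed, 4 were over 2-fold above both controls in members, *Krt14*, *Krt5*, *Krt15* and *Dst*, beside 2.48% of all genes. *Krt14* is among them although the rule limited it in every member, so its call is not read. The count of 4 and the median that follows both include it. The list had a median log2 ratio of 1.79, beside −0.03 over all genes tested and −2.17 between control 1 and control 2. It summed to 1043, 1653 and 4428 CPM in members and to 3999, 3246 and 14842 CPM in the other cells. *Krt15*, the most abundant, was at 949, 1142 and 2971 CPM. *Krt14*, which the rule held below 1000 CPM in each cell, was at 14.9, 110 and 267 CPM. *Krt14*-high cells made up 58.6% of the cells with at least 1000 genes in that library, and their part in these values was not tested. Of the other leading genes, 4 were low, with *Bod1* at 22.3, 17.3 and 113 CPM, *Triap1* at 12.4, 30.1 and 133 CPM, *Gcc2* at 10.5, 35.4 and 133 CPM and *Vgll4* at 6.20, 40.6 and 135 CPM. In control 1 they were found in at most 3 of 13 members. Both controls lay below 50 CPM for these 4, so they met the mean of 50 CPM only through the *Vdr* cKO-labelled library. The same holds for *Defb6*, *Krt79* and *Dst*.

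Genes most below both controls were *Gpatch4*, *Gmeb1*, *Dctn1*, *Fkbp5*, *Slc16a1*, *Phf23*, *Ncbp3*, *Cdc14b*, *Slurp1* and *Sugt1*. *Slurp1*, a secreted protein of the granular layer, was at 304, 313 and 70.5 CPM, a log2 ratio of −2.11 beside −0.04 between the controls. It was found in 10 of 13, 44 of 77 and 28 of 108 members. The other cells had 43.2, 82.0 and 24.3 CPM. *Fkbp5*, a target of the glucocorticoid receptor that binds Hsp90, was at 287, 127 and 19.8 CPM, a log2 ratio of −3.32 beside 1.17 between the controls. It was also lower in the other cells, with 151, 155 and 51.1 CPM. *Gpatch4* (192, 36.8 and 2.17 CPM) and *Gmeb1* (215, 26.8 and 2.17 CPM) rested on few cells, with 56.3% and 57.5% of the control 1 counts from one cell. Both met the mean of 50 CPM only through control 1. *Dctn1*, a subunit of dynactin, was at 102, 94.5 and 13.8 CPM, and *Sugt1* at 183, 200 and 42.8 CPM. In control 1 they were found in 3 and 4 of 13 members. One cell, with 335184 of the 1611904 counts of control 1 members, had *Dctn1* at 373 CPM, so this level also rested on few cells.

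The lists of epidermal genes were also compared between the libraries in members. Of 14 spinous genes and 18 granular genes none was over 2-fold above or below both controls, beside 2.48% of all genes above and 3.68% below, so nothing is read from these counts. The lists had median log2 ratios of −0.24 and −0.65 beside −0.05 and 0.64 between control 1 and control 2. *Flg* was at 2060, 1199 and 689 CPM and *Hrnr*, which encodes hornerin, at 848, 1135 and 504 CPM. Both lay below both controls, by less than 2-fold against the nearer one. Of 17 transcription factors, 2 were lower, *Prdm1* (87.5, 117 and 37.1 CPM) and *Maf* (81.3, 123 and 32.8 CPM). Of 21 barrier lipid genes, *Alox12e* was higher (237, 97.3 and 605 CPM) and *Lipk* was lower (174, 150 and 73.7 CPM). Of 17 proteases and inhibitors, *Serpinb2* was lower (253, 199 and 91.3 CPM). None of 11 desmosome genes, 10 connexin and tight junction genes, 10 calmodulin genes, 4 coagulation genes, 3 vitamin D pathway genes, 80 ribosomal protein genes or 8 mitochondrial genes was apart.

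Immediate early genes, which respond within minutes to stress and to tissue dissociation, summed to 3194, 3627 and 5731 CPM in members and to 2980, 2453 and 5709 CPM in the other cells. Their median log2 ratio in members was 0.99, beside −0.54 between control 1 and control 2. Of 11, *Junb* (106, 237 and 480 CPM) and *Dusp1* (85.0, 197 and 427 CPM) were over 2-fold above both controls. These and the following counts stand beside 2.48% of all genes above and 3.68% below both controls, in lists of few genes. *Fos* was at 534, 440 and 965 CPM. Of 12 heat shock chaperones, *Hsph1* was lower (143, 79.1 and 35.2 CPM). Among 3 apoptosis genes at the level needed, *Mcl1*, which protects from cell death, was higher (57.1, 61.2 and 169 CPM) and *Xiap*, an inhibitor of caspases, was lower (137, 109 and 53.4 CPM). Of 4 upper follicle genes, *Defb6* and *Krt79* were higher. Handling of the cells, sequencing and genotype cannot be told apart with 1 library.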

How the data were processed

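Single-cell counts of P18 skin were used from 3 libraries. The authors deposited a matrix of raw counts per gene and barcode for each library, without normalization. The build mm10 is given in the submitters' processing notes, and the paper names Seurat for alignment, while a read aligner, the annotation and the rule for counting molecules are not given in the sources used here. Members and gene lists were chosen with earlier results of these data known. Of 19927 gene symbols, 97.6% were found in GENCODE M21. The cells of a class were pooled within a library, and each gene's count was divided by the pooled total (CPM), while 1 CPM was added before log2 ratios. Replicates are libraries, cells are not replicates, and no p-value was computed. No doublet caller was run, and a fit without the 10% of cells with the most counts was tried in its place. Genes named are the markers with *Vdr* and *Krt14*, examples from the lists at 50 CPM or more in members, the 10 highest and 10 lowest of each comparison by the library nearest to no difference, or against the nearer control, and the 10 most abundant. A gene that this rule names is not reported here. The genes of the single comparisons with *Lor*-low and *Lor*-high cells were chosen after their values were seen. Alternatives changed the cell, *Lor* and *Krt14* limits, the scaling (edgeR 4.0.16 TMM and DESeq2 1.42.0 median-of-ratios factors in R 4.3.3), the weight of cells, the depth, the level and the fold. The call rules were run on simulated class sums with known changes. Those sums held no single cells that give a large share of a gene's counts, so such noise was not covered. Python 3.11.15, numpy 2.4.6, scipy 1.17.1, pandas 2.3.3 and matplotlib 3.10.9 were used.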

Additional observations from a re-analysis of the deposited data

Results flagged for a closer look

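For 5 named genes, members stood on opposite sides of the other cells in the *Vdr* cKO-labelled library and in both controls. The difference was not tested in any of them. The log2 ratio of members over the other cells was 0.46 for *Krt10* in the *Vdr* cKO-labelled library, and −0.13 and −0.06 in control 1 and control 2. For *Krt77*, a suprabasal keratin, it was 0.52 against −0.35 and −0.20. Of the other cells of that library, 67.6% were *Krt14*-high cells, in which *Krt10* was at 20034 CPM and *Krt77* at 9374 CPM, beside 35852 and 17507 CPM in its *Lor*-low cells. For *Gcc2* the ratio was 0.44 against −3.56 and −1.87, for *Triap1* 0.24 against −3.0 and −1.45, and for *Sugt1* −1.24 against 1.10 and 0.73. In control 1, *Gcc2*, *Triap1* and *Sugt1* were found in 3, 2 and 4 of 13 members.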

How the results depend on the processing

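No paired analysis was possible because the labels give no pairing between the controls and the single *Vdr* cKO-labelled library, and no test was made. Under the alternatives, 115 values moved beyond a tolerance and 242 did not. The tolerance was 1.5-fold for a count of genes, the 95% interval for a share and 1 SD between the 2 controls for a log2 ratio, which is wide enough to let the sign turn. The log2 ratio of *F3* (0.41) was −0.013 without control 1, 1.01 without control 2, −0.037 with no limit on *Krt14* and −0.010 counted once per cell. That of *Wfdc21* (−0.47) was 0.19 without control 2 and 0.023 counted once per cell. That of *Lor* (−0.12) was 0.075 without control 1, 0.0026 by the mean of cells, 0.028 thinned and 0.023 counted once per cell. That of *Krt10*, near 0, also changed sign, and that of *Serpina12* did not under these alternatives.

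The share of members in control 1, control 2 and the *Vdr* cKO-labelled library was 19.7%, 25.6% and 17.2% with at least 500 genes, and 4.43%, 11.5% and 8.63% with *Lor* from 12000 to 30000 CPM. It was 24.2% in control 2 and 27.1% in the *Vdr* cKO-labelled library with no limit on *Krt14*, and 10.5% in that library with *Krt14* below 500 CPM.

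Genes higher in members than in the other cells (11) numbered 4 with at least 500 genes, 3 with *Lor* from 12000 to 30000 CPM, 17 with TMM factors, with median-of-ratios factors and with a total without the most abundant genes, 19 thinned, 7 with 10 CPM added, 20 and 6 at levels of 10 and 100 CPM, 58 and 3 at 1.5-fold and 3-fold, and 25 to 29 without a control. Lower genes (33) numbered 2 with no limit on *Krt14*, 1 with each gene counted once per cell, 157 and 17 at levels of 10 and 100 CPM, 74 and 17 at 1.5-fold and 3-fold, and 49 to 72 without a control. Genes above both neighbouring classes (0) numbered 1 with at least 1500 genes, 3 at a level of 10 CPM, 2 at 1.5-fold and 0 to 1 without a control, and those below both (0) 7 at a level of 10 CPM and 2 to 2 without a control.

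Genes above *Lor*-low cells (62) numbered 41 with *Lor* from 12000 to 30000 CPM, 100 at a level of 10 CPM, 122 and 34 at 1.5-fold and 3-fold and 92 to 97 without a control. Those below (5) numbered 1 with at least 500 genes, TMM factors or 10 CPM added, 2 with no limit on *Krt14*, median-of-ratios factors or a level of 100 CPM, 9 without the 10% of cells with the most counts, 10 by the mean of cells, 0 counted once per cell or at 3-fold, 94 at a level of 10 CPM, 32 at 1.5-fold and 14 to 28 without a control. Genes higher in *Lor*-high cells (59) numbered 89 with at least 500 genes, 98 and 122 with TMM and median-of-ratios factors, 104 and 39 at levels of 10 and 100 CPM, 121 and 24 at 1.5-fold and 3-fold and 96 to 126 without a control. Lower ones (68) numbered 39 with *Lor* from 12000 to 30000 CPM, 33 and 22 with TMM and median-of-ratios factors, 40 counted once per cell, 381 and 23 at levels of 10 and 100 CPM, 249 and 14 at 1.5-fold and 3-fold and 185 to 188 without a control.

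Genes of the *Vdr* cKO-labelled library above both controls (77) numbered 126 with *Lor* from 12000 to 30000 CPM, 142 without the 10% of cells with the most counts, 119 by the mean of cells, 51 with TMM factors, 116 with a total without the most abundant genes, 121 thinned, 687 and 19 at levels of 10 and 100 CPM, 253 and 17 at 1.5-fold and 3-fold and 280 to 539 without a control. Those below (114) numbered 74 with at least 500 genes, 67 with no limit on *Krt14*, 324 and 45 at levels of 10 and 100 CPM, 275 and 26 at 1.5-fold and 3-fold and 248 to 616 without a control. The log2 ratio of *Krt10* (−0.01) was −0.080 with at least 500 genes, 0.061 with at least 1500, 0.035 with *Lor* from 12000 to 30000 CPM, −0.29 with no limit on *Krt14*, −0.075 by the mean of cells, −0.15 and −0.13 with TMM and median-of-ratios factors, −0.040 without the most abundant genes and −0.081 thinned. That of *Serpina12* (−0.90) was −0.73 without the 10% of cells with the most counts, −0.75 by the mean of cells and −0.048 counted once per cell, where each cell adds at most 1 count. A limit of fewer libraries, a lower level or a smaller fold admits more genes by its construction, and the cause of the other changes was not tested. The 13 members of control 1 limit every comparison.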
